A study of Homo sapiens with 6 samples.

Results

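The regions described here are places where both replicates of a chromatin pull-down had a peak at, or close to, the same position. They were chosen by the peak calls themselves. Within each replicate, the peaks called over the 2 controls were merged where they overlapped, on chromosomes 1 to 22 and X. A merged peak was kept when a merged peak of the other replicate overlapped it or lay under 1000 bp from its nearer end. This gave 411 of 14929 merged peaks in replicate 1 (2.75%) and 385 of 16784 in replicate 2 (2.29%), 796 of 31713 in all. True overlaps, with at least 1 shared base, accounted for 183 merged peaks of replicate 1 (1.23%) and 179 of replicate 2 (1.07%). Joined across replicates, the members formed 360 sites. Of these, 159 held a true overlap and 201 held near pairs only. These shares follow from the rule, and so do the positions of the members in both replicates, so nothing is tested with them.

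The assay was chromatin isolation by RNA purification with sequencing (ChIRP-seq) in HCT116, an established human colorectal carcinoma cell line. It had 3 groups of 2 libraries, which the series describes as biological replicates. They were CRLM1_IP, captured with antisense oligonucleotides to the long noncoding RNA (lncRNA) CRLM1, LacZ, captured with oligonucleotides to bacterial LacZ, and Input, chromatin without capture. CRLM1 is annotated as LINC01767. By the labels the groups differ in the capture alone, and all cells were of 1 line.

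The data were 4 peak lists. Replicate 1 of CRLM1_IP had 9317 peaks over Input and 10308 over LacZ on these chromosomes, and replicate 2 had 16765 over Input and 363 over LacZ. The lists of a replicate share its pull-down library. Each peak carries a score from the peak caller with a floor of 50, and list medians lay between 56.02 and 57.96. Read counts are not in the lists, so the depth behind a peak is unknown. Replicate 2 over LacZ is by far the shortest list. The part of that list's length in a missing call there was not tested.

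A ChIRP peak is a stretch of DNA that came down with the captured RNA more often than in a control. The gene that encodes the captured RNA is usually seen, because the nascent transcript is still tethered there and because the antisense oligonucleotides can pair with its DNA. Pericentromeric DNA flanks the centromeres and is built largely of satellites, short units repeated in tandem. Human satellites II and III are made of diverged copies of the pentamer GGAAT, and they sit in large blocks on a few chromosomes and beside gaps in the assembly. Genes for transfer RNAs (tRNAs), U6 small nuclear RNA and vault RNA are short and transcribed by RNA polymerase III. Those for tRNAs and U6 are present in many copies or with many pseudogenes.

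The sequences below are stretches of the reference (GRCh38) at sites to which the results return. The first shows the CRLM1 locus, read on the plus strand at chr1:56414923-56415061, with capitals for the bases complementary to the probe CRLM1-1.
LINC01767: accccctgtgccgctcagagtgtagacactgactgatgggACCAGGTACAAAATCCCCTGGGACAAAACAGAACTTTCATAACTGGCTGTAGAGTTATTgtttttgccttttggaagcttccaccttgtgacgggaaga

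The next 3 come from the highest-ranked pericentromeric sites of chromosomes 4, 5 and 10. Each is the middle of the longest stretch that peaks of both replicates share in the site. They are read on the plus strand at chr4:49098974-49099123, chr5:49666692-49666841 and chr10:41896522-41896671. Capitals mark GGAAT and its reverse complement ATTCC.
chr4 satellite: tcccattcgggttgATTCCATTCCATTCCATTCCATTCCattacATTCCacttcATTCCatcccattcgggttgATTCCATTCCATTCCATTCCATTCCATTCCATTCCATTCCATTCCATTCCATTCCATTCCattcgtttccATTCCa
chr5 satellite: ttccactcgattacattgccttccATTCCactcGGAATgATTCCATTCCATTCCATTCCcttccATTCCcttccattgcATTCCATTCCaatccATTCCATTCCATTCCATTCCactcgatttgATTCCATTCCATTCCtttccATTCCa
chr10 satellite: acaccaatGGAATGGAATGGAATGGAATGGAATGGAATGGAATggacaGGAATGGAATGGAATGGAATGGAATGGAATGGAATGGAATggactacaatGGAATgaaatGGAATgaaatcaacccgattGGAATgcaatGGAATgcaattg

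Small RNA genes at overlapping sites are shown by a tyrosine tRNA gene (plus strand, chr6:26568828-26568978) and a serine tRNA gene of the cluster on chromosome 17 (plus strand of the genome, chr17:8226580-8226721). Capitals mark the annotated gene.
TRY-GTA1-1: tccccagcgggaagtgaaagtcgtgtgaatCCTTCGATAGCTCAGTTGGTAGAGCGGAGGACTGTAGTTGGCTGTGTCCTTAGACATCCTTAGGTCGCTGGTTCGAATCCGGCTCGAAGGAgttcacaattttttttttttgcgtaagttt
TRS-AGA2-6: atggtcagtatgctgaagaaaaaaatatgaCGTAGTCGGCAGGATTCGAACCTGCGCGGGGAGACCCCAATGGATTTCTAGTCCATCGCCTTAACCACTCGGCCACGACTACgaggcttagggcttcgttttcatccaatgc

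The last comes from an intergenic site on chromosome 11 that was called in all 4 lists. It is the middle of the longest shared stretch there, on the plus strand at chr11:2205623-2205814. Capitals mark CTCCC, which recurs through it.
chr11 tandem repeat: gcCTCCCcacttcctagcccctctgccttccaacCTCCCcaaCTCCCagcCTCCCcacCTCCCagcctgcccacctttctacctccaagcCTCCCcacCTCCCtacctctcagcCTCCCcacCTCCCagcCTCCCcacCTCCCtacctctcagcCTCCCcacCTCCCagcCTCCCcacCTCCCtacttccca

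The first comparison asked whether near pairs were a distinct group or the short end of a continuous range of distances. There were 187 overlapping pairs of a replicate 1 and a replicate 2 merged peak and 265 pairs with a gap of 0 to 999 bp. Pairs with larger gaps, which the rule did not take, were as frequent. The 19 classes of 1 kb between 1 and 20 kb held 226 to 276 pairs each (median 249), and 2 of them reached or passed the near class. Outside the pericentromeric flanks, the near class held 186 pairs, against 168 to 236 (median 202) in the wider classes. Near pairs there were thus no denser than pairs many kilobases apart. Within the flanks the near class held 79 pairs, above the 22 to 58 (median 48) of the wider classes. Over all pairs, a threshold of 1000 bp has no visible edge in these counts. The pairs just inside it had gaps of 994 bp (chromosome 2, scores of 66.6 in replicate 1 and 50.9 in replicate 2) and 989 bp (chromosome 18, 54.0 and 51.7). Those just outside had gaps of 1007 bp (chromosome 4, 51.1 and 166) and 1014 bp (chromosome 12, 66.1 and 60.3). Of these, the gap of 1007 bp lies within a pericentromeric array on chromosome 4, whose peaks also took part in an overlap.

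Measured between midpoints, distances put overlapping and near pairs on a common scale. Outside the pericentromeric flanks, 131 pairs lay under 500 bp apart, against 84 to 121 (median 95) in each 500-bp class from 1 to 10 kb. Within the flanks, 59 pairs lay under 500 bp apart, against 15 to 35 (median 26). The count at the shortest distance was thus above every class at longer distances in both settings. It was 98 and 31 at 500 to 999 bp, inside the range of the longer classes.

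**Figure D1:**
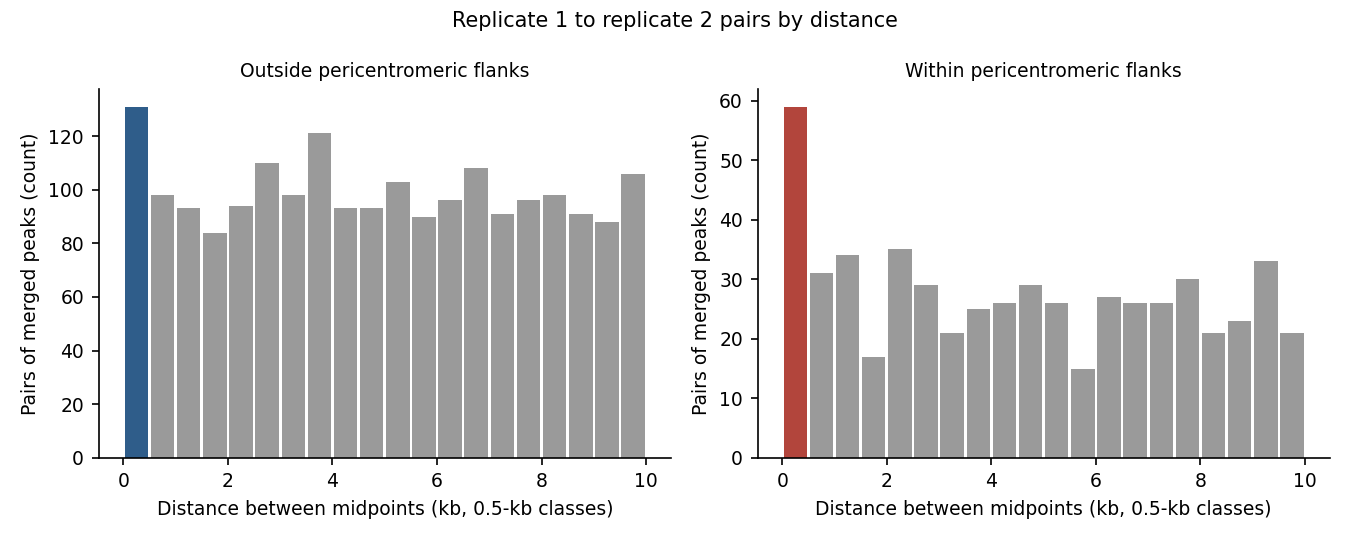
Number of pairs of a replicate 1 and a replicate 2 merged peak (vertical axes, counts, with different scales) by distance between midpoints in 0.5-kb classes (horizontal axes, kb), outside (left) and within (right) the pericentromeric flanks. The coloured bars are the class under 500 bp, 131 pairs on the left and 59 on the right, and the grey bars are the longer classes, at most 121 and 35.

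Pericentromeric sites were counted apart, as the rule asks. A merged peak was called pericentromeric when it lay within 5 Mb of the centromeric alpha satellite, not counting assembly gaps. Of the 360 sites, 61 were pericentromeric. These were 40 of the 159 sites with a true overlap and 21 of the 201 near-only sites. In replicate 1, 109 of 915 pericentromeric merged peaks recurred (11.9%), compared with 302 of 14014 elsewhere (2.15%). In replicate 2 the values were 80 of 986 (8.11%) and 305 of 15798 (1.93%). For true overlaps alone, replicate 1 had 6.89% near centromeres and 0.856% elsewhere. Replicate 2 had 5.88% and 0.766%. The recurring share was therefore higher near centromeres in each replicate.

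The overlapping pericentromeric sites were mostly satellite arrays. Of the 40, 34 had at least 20% of their bases in GGAAT or ATTCC, with a median of 55.8% and a range of 22.9% to 69.8%. They lay on chromosome 4 (12 sites), chromosome 10 (8), chromosomes 5 and 17 (3 each) and chromosomes 2, 16, 20 and 22 (2 each). No overlapping site outside the flanks on these chromosomes reached 20%, and the highest value there was 6.68%. Among merged peaks, the median was 55.9% in 121 overlapping pericentromeric members, 3.66% in 68 near ones and 1.08% in 1712 other pericentromeric peaks. Elsewhere it was 1.03% in overlapping members, 0.969% in near members and 1.05% in the rest. The letters searched were GGAAT on both strands, and GGAAT and ATTCC can share bases where they meet.

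**Figure D2:**
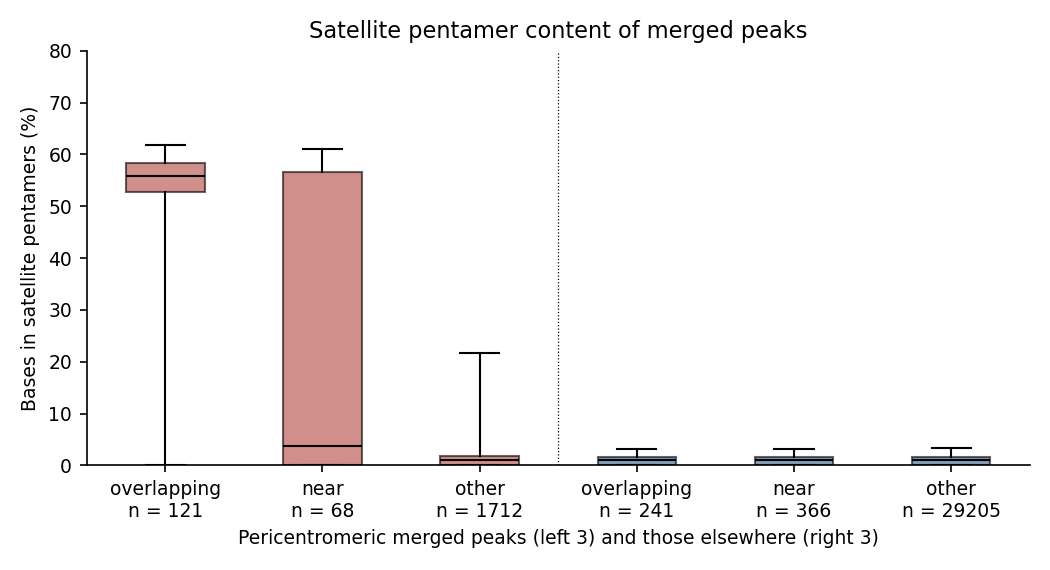
Share of bases in GGAAT or ATTCC (vertical axis, %) in merged peaks of both replicates, pericentromeric (red, left) and elsewhere (blue, right), for overlapping members, near members and other merged peaks. Boxes span the quartiles with the median as a line, and whiskers run from the 5th to the 95th percentile. The pericentromeric overlapping members have a median of 55.9%, and the 3 groups elsewhere stay near 1%.

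Repetition was also seen without a fixed motif. As a measure chosen after the values were seen, each peak was compared with itself shifted by 2 to 100 bp, and the share of equal bases at the best shift was kept. It was at least 60% in 110 of 121 overlapping pericentromeric members (90.9%), and the best shift was a multiple of 5 bp in 105 of these. The share of such peaks was 44.1% of near pericentromeric members, 5.49% of other pericentromeric peaks and 0.291% of other peaks elsewhere. Copies elsewhere in the genome were common as well. Across overlapping pericentromeric members, a median of 60.2% of the 31-base words occurred more than once in the assembly. The median was 2.91% in other pericentromeric peaks, 3.37% in overlapping members elsewhere and 0% in other peaks elsewhere. Assembly gaps lay within 100 kb of 65.3% of overlapping pericentromeric members and of 6.07% of other pericentromeric peaks. The CENP-B box, the binding motif of the centromere protein CENP-B in alpha satellite, was found in 0 of the 796 members and in 11 of the other 30917 merged peaks.

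Satellite-rich members were called over Input and not over LacZ. Of 57 satellite-rich overlapping members in replicate 1 and 52 in replicate 2, 0 had a LacZ call, and neither did any satellite-rich near member. Among the satellite-rich peaks of replicate 1 that did not recur, 2 of 81 had a LacZ call. Among the 40 overlapping pericentromeric sites, 38 (95%) had no LacZ call in either replicate. The 2 exceptions, on chromosomes 5 and 17, were called over LacZ in replicate 1 and were not satellite-rich. Overlapping sites elsewhere differed, with a LacZ call in replicate 1 at 72 of 119 (60.5%). Other merged peaks of replicate 1 had a LacZ call in 62.8% of cases in the pericentromeric flanks and in 70% elsewhere. In replicate 2 these shares were 1.99% and 2.18%, so the count of 0 there is close to them. Satellite content, width and the number of copies move together with this pattern, and their part in it was not tested.

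Most satellite-rich peaks of replicate 2 were recurrent. Over the whole genome, replicate 1 had 166 merged peaks with at least 20% satellite pentamers and replicate 2 had 70. Of the latter, 52 (74.3%) overlapped a replicate 1 peak and 5 more were near one. In replicate 1, 57 (34.3%) overlapped a replicate 2 peak and 28 (16.9%) were near one. The median Input score of satellite-rich peaks in replicate 1 was 191 for overlapping members, 99.7 for near members and 79.8 for the rest. In replicate 2 the medians were 88.4, 62.1 and 64.3. The medians of overlapping satellite members lay above the 90th percentile of their Input list, which was 75.3 in replicate 1 and 76.4 in replicate 2. The median of near satellite members lay above it in replicate 1 and below it in replicate 2.

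Large arrays carried the highest-ranked pericentromeric sites. Sites were ranked by the lower of the replicates' highest scores. The first, at chr4:49095995-49111053, joined 6 merged peaks of replicate 1 and 4 of replicate 2. Its highest scores were 873 over Input in replicate 1 and 381 over Input in replicate 2. Satellite pentamers made up 55.6% of its bases, as in the stretch printed above. On chromosome 5, the site at chr5:49666083-49667430 scored 795 and 283, and the neighbouring site at chr5:49656211-49661915 scored 253 and 435. The second of these was the only one of the 5 that scored higher in replicate 2. At chr10:41894702-41900165 the scores were 706 and 202. The fifth, at chr4:49091065-49095249, scored 462 and 192. None of these 5 had a score over LacZ, and all were intergenic. The highest Input score of any replicate 1 member, 1506, was at chr4:49118302-49121504, where replicate 2 scored 101.

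Scores of the replicates moved together only in part. Over the 39 overlapping pericentromeric sites scored over Input in both replicates, Spearman's rho was 0.55, and replicate 1 was higher at 35. The median was 242 in replicate 1 and 88.6 in replicate 2. Neighbouring sites of an array share their sequence, so these sites are not independent. For 91 overlapping sites elsewhere, rho was 0.20 and the medians were 58.2 and 59.0. Over 127 near-only sites outside the flanks rho was 0.04, and over 15 near-only sites within them it was -0.34. Both describe sites near the floor of the score.

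**Figure D3:**
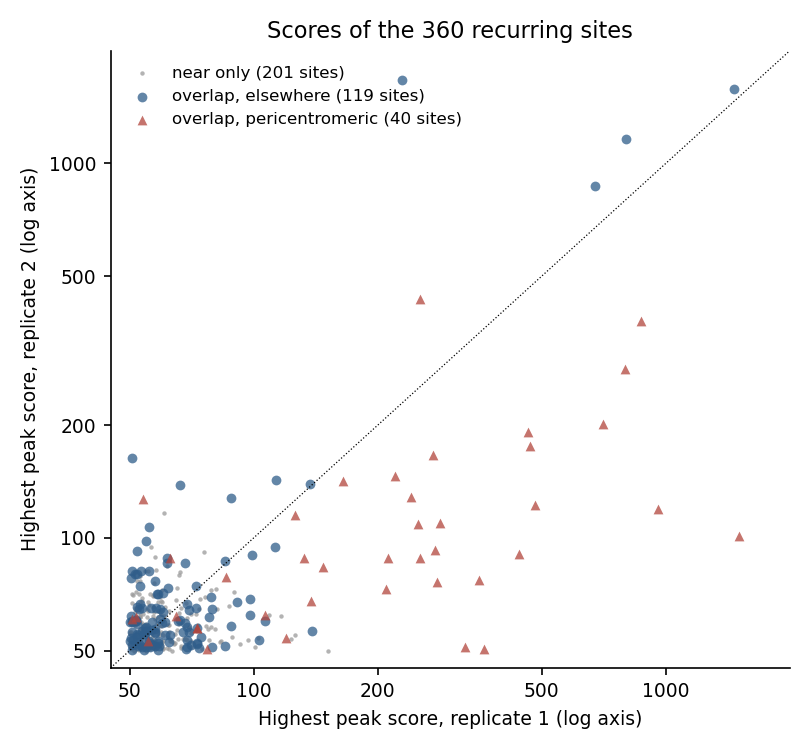
Highest score in replicate 1 (horizontal, log axis) and in replicate 2 (vertical, log axis) for each of the 360 recurring sites. Grey dots are near-only sites, blue circles overlapping sites outside the pericentromeric flanks and red triangles overlapping pericentromeric sites, and the dotted line marks equal scores. Most red triangles lie below the line, and 4 blue circles stand far above the other blue ones in both replicates or in replicate 2.

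Outside the pericentromeric flanks, 119 sites had a true overlap. Most scored close to the floor: the lower of the replicates' scores was under 60 at 90 of them (75.6%) and at least 100 at 6. Those 6 are the CRLM1 locus, the growth hormone gene GH1, the angiogenic growth factor gene VEGFA, the U6 gene RNU6-1, the repeat on chromosome 11 and the tyrosine tRNA gene.

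LINC01767, the gene of the captured RNA, ranked first. The site at chr1:56414742-56416221 scored 1008 over Input and 1467 over LacZ in replicate 1, and 1580 and 936 in replicate 2. It began 176 bp before the annotated start and covered 1304 of the gene's 2220 bases, all of them exonic in some transcript. Of the 9 CRLM1 probes, 6 matched the locus in full and all 6 fell within both replicates' peaks. Each of these probes has 59 bases. This site checks the capture and the label of the pull-down.

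Away from that locus, no member resembled a probe at length. The longest exact match of another member to a CRLM1 probe was 14 bases, and the median over members was 9. The longest match to a LacZ probe was 13 bases in members, also with a median of 9. Among the other merged peaks, which are far more numerous, the longest match to a CRLM1 probe was 17 and the median was 9. By the median, probe matches of members were thus no longer than those of peaks that did not recur. The longest matches cannot be compared directly, because the sets differ in size.

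The next 3 sites had high scores in both replicates over Input. GH1 encodes pituitary growth hormone. At chr17:63916517-63917343 its site scored 803 over Input and 130 over LacZ in replicate 1, and 1165 over Input in replicate 2, with no LacZ call there. It covered 144 bases of the gene at its downstream end and ran 683 bp past it. VEGFA, with its site at chr6:43778848-43782352, scored 643 over Input and 675 over LacZ in replicate 1, and 868 over Input in replicate 2. That site was 3505 bp wide, lay wholly inside the gene, and 98.8% of it was exonic in some annotated transcript. RNU6-1, one of the U6 genes whose RNA works in the spliceosome, had its site at chr15:67839878-67840663. It scored 229 over Input in replicate 1 and 1670 over Input in replicate 2, with no LacZ call in either. The replicates differed most in score at this site among the 4 highest-ranked sites elsewhere, and the site reached 618 bp upstream of the U6 start. None of these 3 was called over LacZ in replicate 2. Averaged over their peaks, 37.1% of 31-base words at GH1 occurred more than once in the assembly, against 6.23% at RNU6-1 and 0% at VEGFA. The lists hold no reads, so whether the signal at these 3 sites came from the chromosomal copy or from other DNA that carries the same sequence was not tested.

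**Figure D4:**
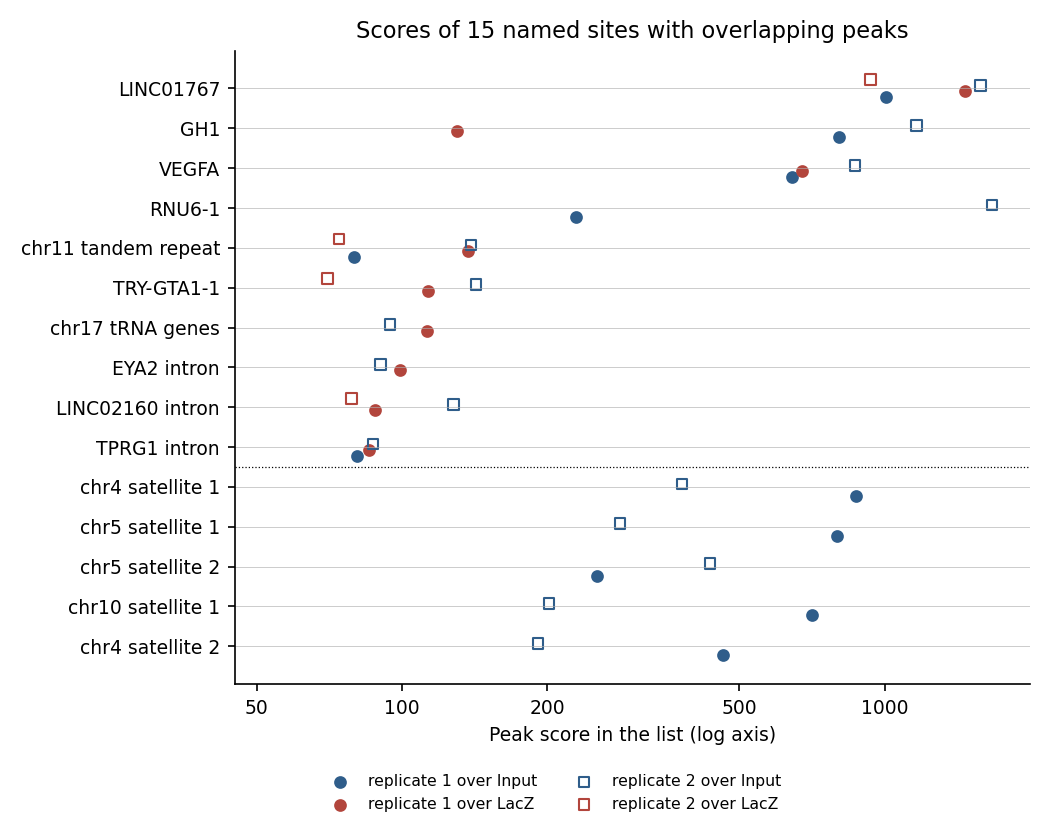
Peak score (horizontal, log axis) in each of the 4 lists for the 10 highest-ranked overlapping sites outside the pericentromeric flanks (above the dotted line) and the 5 highest-ranked pericentromeric sites (below it). Filled circles are replicate 1, open squares replicate 2, blue is over Input and red over LacZ, and a missing symbol means no call. The LINC01767 site has 4 symbols between 936 and 1580, and the pericentromeric sites have blue symbols only.

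Calls over LacZ in both replicates were made at 8 of the 360 sites, of which 6 were true overlaps and 2 near pairs. The CRLM1 locus is the strongest of them. The repeat at chr11:2205399-2206454, intergenic and 33584 bp from TH, the gene of the enzyme that limits dopamine synthesis, scored 79.6 and 137 in replicate 1 and 139 and 74.1 in replicate 2, over Input and LacZ. Of its 3 merged peaks, 1 in each replicate was equal to itself over 68.8% and 70.9% of its bases at a shift of 24 bp, and the other replicate 2 peak stayed under 60% at every shift tried. The letters CTCCC, or GGGAG on the other strand, occurred 27.5 to 71.9 times per kb in these peaks. They were present in 48.9% of other members and in 59.1% of other merged peaks, with a highest density of 45.5 per kb.

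The tyrosine tRNA gene TRY-GTA1-1 is covered in both replicates at chr6:26568605-26569103. That site scored 113 over LacZ in replicate 1, where it had no Input call, and 142 over Input and 70.0 over LacZ in replicate 2. In an intron of the lncRNA gene LINC02160, the site at chr5:33250768-33251223 scored 87.9 over LacZ in replicate 1 and 128 and 78.6 in replicate 2, over Input and LacZ. A site in an intron of a lncRNA gene, at chr5:30677894-30678490, scored 61.5 and 66.3 in replicate 1 and 139 and 69.6 in replicate 2. The last overlap, in an intron of ESRRG, an orphan nuclear receptor gene, at chr1:216917794-216918658, scored 65.5, 69.7, 64.3 and 56.4 in the same order. All these sites carried a score in at least 3 lists.

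The 2 near pairs over LacZ lay in protein-coding genes. MARCHF6, which encodes a ubiquitin ligase of the endoplasmic reticulum, held the first in its 3' part, at chr5:10434890-10436425. The peaks, 408 bp apart, scored 60.7 over LacZ in replicate 1 and 116 and 72.2 over Input and LacZ in replicate 2. The same gene also held a true overlap, at chr5:10431316-10433193, which scored 56.3 over LacZ in replicate 1 and 56.9 over Input in replicate 2. In an intron of CPB2, the gene of a carboxypeptidase that slows clot breakdown, at chr13:46090135-46090863, peaks 163 bp apart scored 56.5 over LacZ in replicate 1 and 94.5 and 53.5 in replicate 2.

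Other high-ranked overlaps were more modest. A cluster of tRNA genes at chr17:8226103-8227282, inside the annotated span of CTC1, a telomere maintenance gene, scored 113 over LacZ in replicate 1 and 94.4 over Input in replicate 2. In an intron of EYA2, a transcriptional coactivator gene, the site at chr20:46954836-46955373 scored 99.1 over LacZ in replicate 1 and 90.2 over Input in replicate 2. The site in an intron of TPRG1 at chr3:189246455-189247067 scored 80.7 over Input and 85.3 over LacZ in replicate 1, and 87.0 over Input in replicate 2. In the first and second of these, each replicate had its call over a different control.

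Small RNA genes recurred at several sites, and they were counted in 2 ways. The tRNA genes were taken from RefSeq after the sites had been seen, so their count is a description. An overlapping member contained a tRNA gene in 8 of 241 cases outside the pericentromeric flanks (3.32%), a near member in 4 of 366 (1.09%) and another merged peak in 59 of 29205 (0.202%). Within the flanks it was 2 of 121 overlapping members and 5 of 1712 others. Small nuclear RNA genes were in 4 overlapping members elsewhere (1.66%) and in 6 of the 29205 others. Those 4 are the peaks of both replicates at RNU11 and RNU6-1. Members of both replicates at a site are counted separately, so they are not independent cases. By sites, 7 of the 360 held a tRNA gene, 5 of them true overlaps.

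Scores at the other small RNA genes ranged widely between lists. RNU11, the U11 RNA gene of the minor spliceosome (chr1:28648600-28648734), scored 138 over Input and 120 over LacZ in replicate 1 and 56.6 over Input in replicate 2. VTRNA1-1, a vault RNA gene (chr5:140711276-140711373), scored 63.3 over Input and 78.9 over LacZ in replicate 1 and 69.4 over Input in replicate 2. TRR-TCT1-1, an arginine tRNA gene (chr1:93847573-93847657), scored 50.6 over LacZ in replicate 1 and 163 over Input in replicate 2. Both replicates covered each of these genes.

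The remaining tRNA genes were of several kinds. TRS-TGA4-1, for serine (chr6:27505828-27505909), scored 65.1 and 68.8 in replicate 1, over Input and LacZ, and 57.7 over Input in replicate 2. The pericentromeric site with TRW-CCA2-1, for tryptophan (chr17:19508181-19508252), scored 62.7 over LacZ in replicate 1 and 88.3 over Input in replicate 2. On chromosome 17, the cluster held TRT-AGT1-2 in the replicate 1 peak only, and TRS-AGA2-6 and TRI-AAT4-1 in the peaks of both. Both near pairs with tRNA genes placed different genes under each replicate's peak. Near chr6:27478702-27480007, replicate 2 covered TRS-AGA2-2 and replicate 1 covered TRD-GTC2-6, and at chr1:248873734-248874578, replicate 1 covered TRL-CAA4-1 and replicate 2 covered TRE-CTC2-1.

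By the gene lists, a gene counted when a recurring peak touched it or the 5 kb before its start. This held for 237 of 62062 annotated genes, or 1.95% of the 12168 with any merged peak. For protein-coding genes it was 142 of 6976 with any peak (2.04%). The small structured RNA genes gave 6 of 350 (1.71%), which were RNU6-1, RNU11, VTRNA1-1, RNU2-13P, RNU6-460P and RNA5SP451. For RNU2-13P, RNU6-460P and RNA5SP451 the peak lay upstream of the gene and not on it. Growth factors and hormones gave 2 of 4 (GH1 and VEGFA), out of 13 on the list, which also holds the enzyme gene TH. That list was chosen with earlier results of these data known, so its share is a description only.

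Adhesion genes were few. Cadherins and catenins, which join neighbouring cells, gave 4 of 51 with any peak (7.84%), CDH9, CDH12, CDH13 and CDH18. Their sites scored between 50.3 and 62.2 in every list that called them, and those of CDH12 and CDH13 were true overlaps in introns. These genes are long: CDH12, CDH13 and CDH18 span 1102672 to 1173676 bp, and CDH9 spans 240554 bp. CDH9, CDH12 and CDH18 lie on chromosome 5, which held 10.1% of all merged peaks. The part of gene length and place in the 7.84% was not tested. Neuronal and immunoglobulin adhesion genes gave 1 of 26 (CNTN4, a near pair with scores from 52.2 to 64.0). DNA damage response genes gave 0 of 15. The list of bound genes held 6 that the study named from these libraries and plotted for expression. Of these, 5 had a merged peak in some list and 0 had a recurring one. The study drew them from another peak set, called over Input and without peaks shared with LacZ, so the counts are not like for like. The study's binding profiles at CRLM1, AP4B1-AS1 and ATP5F1 lie outside this list. Of the neighbours of CRLM1, LINC01767 itself was the one that recurred. All of these are counts of few genes beside the 1.95% over all genes.

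Near members had median scores close to those of peaks that did not recur. In replicate 1 over Input, the median score was 57.2 in near members, 69.0 in overlapping members and 56.0 in other peaks. In replicate 2 over Input it was 57.1, 63.0 and 57.7. In replicate 1, 42.9% of overlapping members, 15.5% of near ones and 9.36% of other peaks were at or above the 90th percentile of the Input list. In replicate 2 the values were 33.5%, 6.80% and 9.80%. Without the pericentromeric peaks, the overlapping members had 15.2% in replicate 1 and 21.5% in replicate 2. Scores come from the calls that chose the members, so they are given as a description.

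The 5 highest-ranked near pairs outside the flanks had scores of at most 92.0. At chr20:39558996-39560801, peaks 430 bp apart scored 62.9 and 76.0 in replicate 1, over Input and LacZ, and 92.0 over Input in replicate 2. At chr4:83740139-83741519, peaks 550 bp apart scored 81.0, 76.4 and 73.1 in the same order. At chr7:99893020-99894117, in an intron of the ubiquitin ligase gene TRIM4, peaks 20 bp apart scored 89.7, 71.7 and 71.7. The peaks at chr14:51356696-51358617, in LINC00640, were 902 bp apart and scored 79.0 over LacZ in replicate 1 and 72.4 over Input in replicate 2. Those at chr3:103451144-103452150 were 242 bp apart and scored 76.3 and 69.7 over the same controls. None was called in replicate 2 over LacZ.

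Overlapping peaks shared more of their span at pericentromeric sites than elsewhere. Where 1 merged peak of each replicate overlapped, the shared part was a median of 81.8% of the joined span at 19 pericentromeric sites and 54.3% at 113 sites elsewhere. Starts differed by a median of 71 and 134 bp. Of the 113, 60 shared at least 50% of the span and 14 shared under 10%. No pair had identical edges. Widths went the same way, with a median of 879 bp in overlapping pericentromeric members against 396 bp in other pericentromeric peaks, and 401 bp in overlapping members elsewhere against 397 bp in other peaks. A wider peak has more room to overlap, and its part in the counts was not tested.

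The sites elsewhere were placed along genes much as all merged peaks were. Of the 119 overlapping sites, 53 were intronic (44.5%), 40 intergenic (33.6%), 18 within 5 kb upstream of a start (15.1%), 5 in other exons (4.20%) and 3 in a UTR or coding sequence (2.52%). All merged peaks outside the flanks gave 48.9%, 33.6%, 12.7%, 1.90% and 2.91%. The 180 near-only sites there gave 45.0%, 40.0%, 13.3%, 0.556% and 1.11%. In the flanks, 39 of 40 overlapping sites were intergenic (97.5%), compared with 50.2% of all pericentromeric merged peaks. GC content was alike, with medians of 39.0% in overlapping members, 38.0% in near members and 39.4% in other peaks outside the flanks.

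Chromosome 5 held the most sites, 54 of 360, and 10.1% of all merged peaks. Outside the flanks it had 13 of the 119 overlapping sites (10.9%) and 32 of the 180 near-only sites (17.8%), beside 10.0% of the merged peaks there. Chromosome 1 had 15 overlapping sites elsewhere (12.6% of sites, 8.82% of merged peaks), and chromosome 8 had 14 (11.8% and 6.66%). Chromosome 15 had 7 (5.88% and 3.05%). Chromosome 4 had 6 elsewhere and 12 in the flanks. X had 0 sites and 211 merged peaks. Chromosome 12 had 1 overlapping site for 4.43% of merged peaks elsewhere. Per chromosome the counts were small, and no test was made of them.

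**Figure D5:**
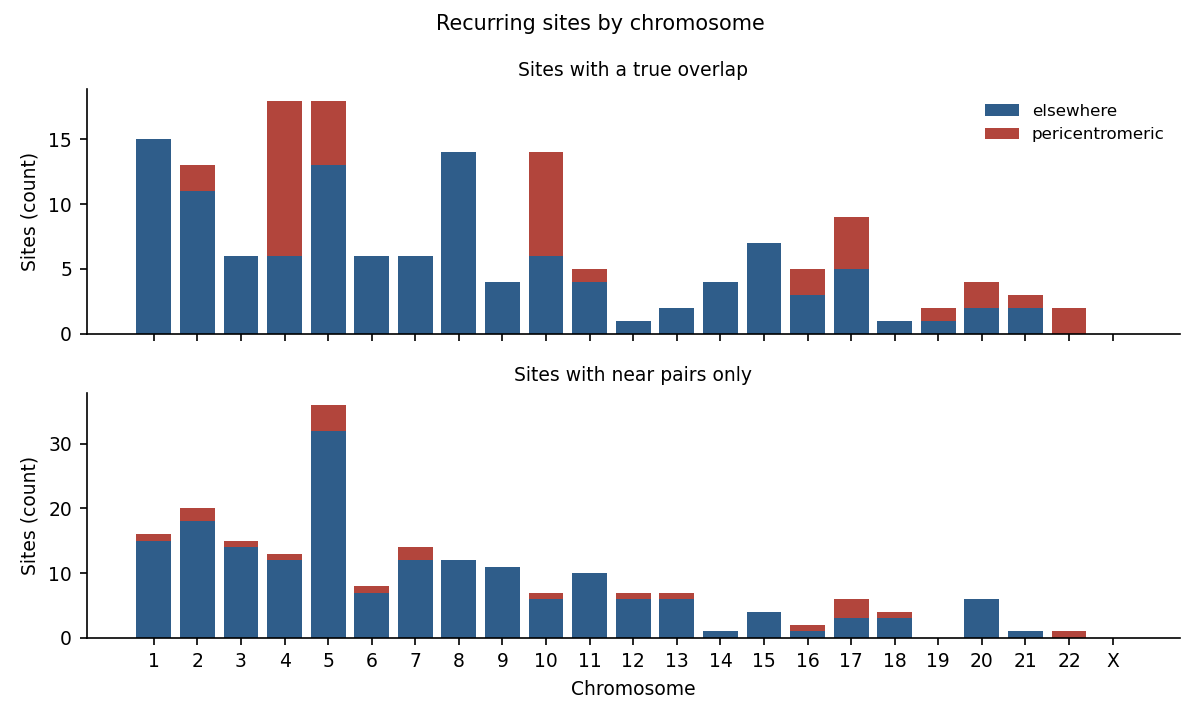
Number of recurring sites on each chromosome (vertical axes, counts), for sites with a true overlap (top) and near-only sites (bottom), split into sites outside (blue) and within (red) the pericentromeric flanks. Red bars are tallest on chromosome 4 (12 sites) and chromosome 10 (8) among true overlaps, and chromosome 5 has 36 near-only sites, 32 of them outside the flanks.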

How the data were processed

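Peaks were analysed from 4 lists that the authors deposited, each giving start, end and a score per peak for CRLM1_IP replicate 1 or 2 over the Input or LacZ library of that number. The score is the authors' peak caller value, of unstated scale. Per the labels and methods, the authors trimmed reads with cutadapt, aligned them to GRCh38 with Bowtie2 and called peaks with MACS in each replicate separately. The caller's version and threshold were not settled, since peak names and a lowest score of 50 point to an older release than the methods give. The lists hold no read counts, so depth is unknown and intervals were not computed. Columns of per-sample values left aside numbered 0.

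From the lists, merged peaks and pairs were computed (Python 3.11.15, pandas 2.3.3, numpy 2.4.6), with the code tested on simulated data. All peaks lay within the reference chromosomes (GRCh38, read with pysam 0.24.0, samtools 1.23.1). A site is a group of members of both replicates joined by overlaps or gaps under 1000 bp. Centromeres were located as spans of 100-kb bins with at least 20 CENP-B boxes, and members within 5 Mb were called pericentromeric. Gene models came from GENCODE release 44, and small RNA genes also from RefSeq (GRCh38.p14 table, 1856 genes). Classes were given by the midpoint in the order UTR or coding sequence, other exon, 5 kb upstream, intron, intergenic. Words of 31 bases were counted over 194 contigs of the assembly. The share of repeat-masked bases was not computed, because the reference letters used here carry no mask.

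The members and lists were chosen with earlier results of these data known, and no test was made. Named regions were every site called over LacZ in both replicates, the LINC01767 site, the 10 overlapping sites outside the flanks, the 5 pericentromeric sites and the 5 near pairs ranked highest by the lower of the replicates' highest scores, the pairs closest to the gap limit, and listed genes at a recurring peak. The tRNA genes, the site with the highest Input score on chromosome 4 and the site at chr1:248873734-248874578 were named after their values were seen.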

Additional observations from a re-analysis of the deposited data

Results flagged for a closer look

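Contigs outside chromosomes 1 to 22 and X, which entered no comparison, also held recurring peaks. There were 58 recurring merged peaks there, above a fixed reporting limit of 3 that is not an expected count. They came from 8 of 37 contigs with a peak, 34 of 112 merged peaks in replicate 1 (30.4%) and 24 of 59 in replicate 2 (40.7%). Overlapping pairs numbered 26.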

How the results depend on the processing

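With overlaps only, the recurring peaks fell to 183 in replicate 1 and 179 in replicate 2, and with gaps under 5000 bp they rose to 1230 and 1173. Limits of 500 and 2000 bp stayed within 1.5 times the main counts. With LacZ lists only there were 8 in each replicate and 6 sites with a true overlap, and with peaks at or above the median score of their own list there were 161 and 138, and 72 such sites. Leaving out pericentromeric peaks changed the overlapping members' median GC content from 40.4% to 39.0%, their repeated 31-base words from 19.0% to 3.37%, their GGAAT share from 1.46% to 1.03%, the sites with a LacZ call from 46.5% to 60.5%, and the members at or above the 90th percentile of Input scores from 42.9% to 15.2% (replicate 1) and from 33.5% to 21.5% (replicate 2). Without the CRLM1 locus, the longest probe match fell from 59 to 14 bases. With overlaps only, listed genes at a recurring peak were 58 (protein-coding), 3 (small structured RNAs), 2 (cadherins and catenins) and 0 (neuronal adhesion). The other 23 of the 44 alternative values stayed within 1.5 times, or within the interval or spread of the main value. Alternatives on overlapping sites by list and score, on pairs, LacZ calls, GGAAT share, scores and genes were chosen after seeing the data. Repeat-masked share was not run, since the reference carries no mask, and leaving out a replicate was not possible because membership needs both. With no depth in the lists, a missing call cannot be told apart from a shallow library.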
